A study of Mus musculus with 2 samples.

Results

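Dividing cells of the inhibitory lineage at postnatal day 2 (P2) were compared with one another by EYFP, the mark of a cortical origin. The 388 cells, of 5700 cell barcodes in the series, were chosen by their own measured counts. A cell needed 500 or more genes, at most 10% of its UMIs (unique molecular identifiers, each standing for 1 captured RNA molecule) from mitochondrial genes, 10 or more summed UMIs of the cycling genes Mki67, Top2a, Cenpf, Birc5 and Ube2c, and 2 or more of Dlx1 and Dlx2. Of 2442 P2 cells within the filter, 471 met the cycling rule and 409 of these the Dlx rule. Cells with 2 or more EYFP UMIs (182) were set against cells with 0 (206), and the 21 cells with 1 EYFP UMI were left out.

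All cells came from 1 library of Emx1Cre;R26Eyfpfl/fl mice, made from the dorsal and lateral ventricular-subventricular zone (V-SVZ) with the cortex removed, digested with papain and sorted as propidium iodide-negative, DRAQ5-positive cells. In this line Cre under Emx1 control switches on Eyfp at Rosa26 in cells whose ancestors expressed Emx1. Both groups therefore share the genotype and were split by the reporter read in each cell. They also differed in depth and in RNA of other cell types, as given below. How many animals were pooled is not stated. The other library of the series, of CD1 cortex and dorsal V-SVZ at embryonic day 18, holds no EYFP feature and entered no comparison.

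The V-SVZ lines the lateral ventricles and holds neural stem cells, which pass through dividing intermediate progenitors to neuroblasts that migrate to the olfactory bulb and become inhibitory interneurons. Dlx1 and Dlx2 encode homeobox factors that mark this inhibitory lineage. Progenitors of the dorsal wall descend largely from the embryonic pallium, which expresses Emx1 and gives the excitatory neurons of the cortex, and those of the lateral wall largely from the subpallium, the ventral telencephalon.

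With 1 library there is no replicate, so no test was made and no p-value exists. UMIs were added up within each group and expressed as counts per 1000000 UMIs (CPM), and each comparison is a log2 ratio, cells with EYFP over cells without. Ranges in parentheses are 95% intervals that cover counting error alone, not the spread between animals or cells. The groups held 6542790 and 5559570 UMIs, with a median of 30599.5 and 26120 UMIs per cell. The 2 libraries of the series shared 0 barcode sequences.

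The markers of the label were present. In the cells with EYFP the 5 cycling genes summed to a median of 67.5 UMIs per cell (10 to 541) and Dlx1 and Dlx2 to 29 (2 to 151). In the cells without, the medians were 63 (10 to 391) and 25 (2 to 103). These genes and EYFP chose the cells and are given as a description. EYFP itself ran from 2 to 63 UMIs with a median of 18. Of the 182 cells, 14 had 2 to 4 UMIs, 21 had 5 to 9, 72 had 10 to 19, 50 had 20 to 29 and 25 had 30 or more.

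**Figure D1:**
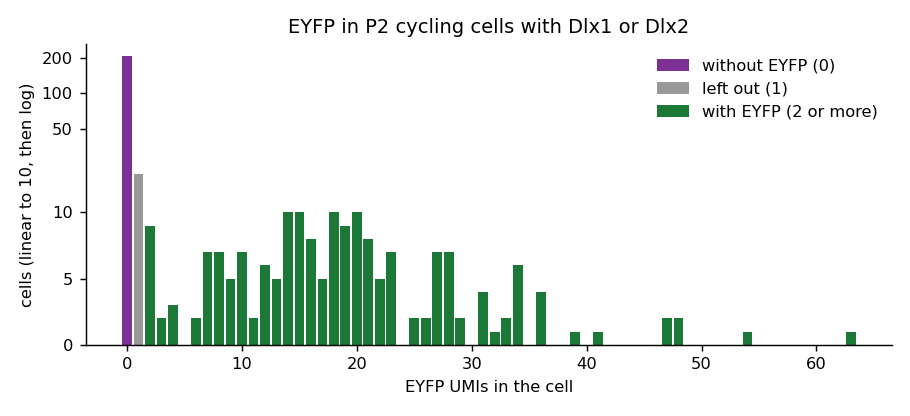
EYFP UMIs per cell (x axis) against the number of P2 cycling cells with Dlx1 or Dlx2 (y axis, linear to 10 and logarithmic above). The 206 cells at 0 and the 182 cells at 2 or more are separated by a thin band of 21 cells at 1.

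EYFP was not seen in microglia and was frequent in excitatory neurons. Of 45 P2 cells with 4 or more microglial genes, which do not come from the Emx1 lineage, 0 had 2 or more EYFP UMIs, which allows a share of up to 6.67% by the limit of 3 counts and 7.87% by the exact interval, at a median of 20803 UMIs per cell. Of 174 cells with 3 or more UMIs of excitatory neuron markers and none of Dlx1 or Dlx2, 77.6% did (70.7 to 83.6), at 12545 UMIs. The share was 44.5% (39.6 to 49.5) among cycling Dlx cells and 20.2% (17.7 to 22.8) among 976 non-cycling Dlx cells, which were shallower, with a median of 10405.5 UMIs against 28598. A cell with 0 EYFP UMIs can still be a labelled cell in which the transcript was missed. Near the limits, 10 of 19 cells with 10 or 11 cycling UMIs and 11 of 24 cells with 8 or 9, just outside, had EYFP. Of cells with 2 or 3 Dlx UMIs 11 of 21 had EYFP, and of cells with 1, just outside, 6 of 19.

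The groups also differed in RNA of other cell types. Counting cells with 3 or more UMIs of the markers of any of 8 other types, or 20 or more of the astroglial markers, 35.2% of the cells with EYFP and 12.1% of those without held such RNA. The 6 excitatory neuron markers summed to 62.5 and 5.58 CPM, and 20 and 2 cells had 3 or more of their UMIs. The 6 oligodendrocyte precursor markers summed to 83.9 and 27.7 CPM, and the 8 astroglial markers to 857 and 604 CPM. The 8 microglial markers went the other way, at 4.89 and 340 CPM, with 63.4% of the latter in 1 cell. Red blood cell markers summed to 1.99 and 1.44 CPM, striatal neuron markers to 13.9 and 12.2, mural markers to 11.9 and 7.02 and endothelial markers to 0.764 and 1.26 CPM, with 5 and 4 of 6 endothelial genes at 0. Of the defining markers, Neurog1 of excitatory progenitors was at 0 in both groups. High doublet scores, the highest 5% and ties with them (146 of 2442 cells), were found in 18.7% and 7.28% of the cells. UMIs of Xist together with those of Y-linked genes, which 1 mouse cell should not both hold, were found in 27.5% and 12.1%.

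No doublet was removed, since the rule keeps all cells. The main results below are therefore also given in the cells that lie below those marker limits and outside the highest doublet scores. These are 109 cells with EYFP and 172 without, called marker-free cells here, in which Xist and Y-linked UMIs still coincided in 16.5% and 6.98%. The name means below those limits, not an absence of such RNA. The astroglial marker Apoe, for example, still had 241 and 492 UMIs in them. This choice removes cells by their astroglial, excitatory and oligodendrocyte counts, so low values of those genes in the marker-free cells follow from it in part. The part that RNA of other cells plays in any ratio was not tested.

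Across all genes the groups were close. The median log2 ratio over 6770 genes with 20 or more UMIs in both groups together and 20 or more CPM in 1 of them was 0.02, and 90% of them lay between -0.34 and 0.51. Higher by 2-fold or more in the cells with EYFP were 77 genes (1.14%), and lower by as much were 40 (0.591%). With 20 or more UMIs alone, 458 of 12182 genes were higher (3.76%) and 245 lower (2.01%).

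Most of the genes lower by 2-fold had a large share of their UMIs in 1 cell. In 33 of the 40, 1 cell held over 25% of the UMIs of the cells without EYFP. Genes of microglia such as C1qa, a complement component with 4 and 299 UMIs, were of this kind, at 67.6% in 1 cell. The other 7 were Epha3, Six3, Slc18a2, Zcwpw1, Emp1, Pdlim1 and Mlf1. Among the 77 higher genes 9 were so concentrated. Of the 77, 71 had 20 or more UMIs in the marker-free cells, where 32 were still higher by 2-fold and 14 had the other sign. Of the 40 lower genes, 20 had that many, of which 8 were still lower by 2-fold and 5 had the other sign.

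**Figure D2:**
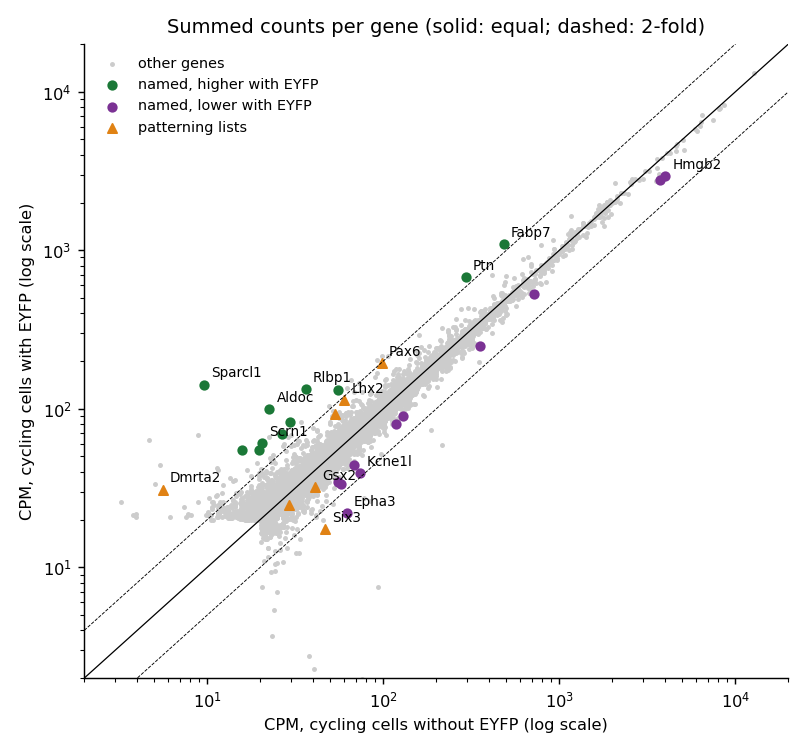
CPM of each of 6770 genes in cycling cells without EYFP (x axis) and with EYFP (y axis), both logarithmic, with 17 genes outside the axes not drawn. Circles are 22 named genes and triangles the patterning genes, and most genes lie between the dashed 2-fold lines.

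Beyond the patterning lists, Rlbp1 was detected in most cells with EYFP and in a minority of those without. It encodes a carrier protein of retinaldehyde, known from the glia of the retina (ENSMUSG00000039194, chromosome 7, 79374870 to 79387048, GRCm38). The 182 cells with EYFP held 868 UMIs, from 0 to 38 per cell with a median of 3, and the 206 cells without held 201, from 0 to 17 with a median of 0. The levels were 133 and 36.2 CPM, a log2 ratio of 1.88 (1.65 to 2.10). A UMI was found in 87.9% and 37.9% of the cells, and in 61.0% (53.5 to 68.1) and 22.2% (16.5 to 28.7) after thinning each cell to 10000 UMIs, which left out 0 cells with and 12 without EYFP. In the marker-free cells the ratio was 1.98 (1.68 to 2.29), with 347 and 120 UMIs. Over all alternatives it lay between 1.73 and 2.02.

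Scrn1, Islr2 and Col9a3 were also higher in both sets of cells. Scrn1, which encodes secernin, had 399 and 114 UMIs (61.0 and 20.5 CPM), a ratio of 1.57 (1.27 to 1.89), and 1.90 (1.45 to 2.37) in the marker-free cells. After thinning it was seen in 36.8% and 11.3% of cells. Islr2, which encodes a leucine-rich repeat membrane protein of neurons and axons, had 69.4 and 26.4 CPM, a ratio of 1.39 (1.12 to 1.67), and 1.83 (1.41 to 2.27) in the marker-free cells. Col9a3, a collagen IX chain gene, had 55.0 and 19.8 CPM, a ratio of 1.48 (1.16 to 1.80), and 1.60 (1.15 to 2.07) in the marker-free cells. The spread of Scrn1 overlapped between the groups, from 0 to 23 UMIs per cell with EYFP and 0 to 8 without.

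Sparcl1 and Bcan, both expressed in glia, kept a smaller difference. Sparcl1, a matrix glycoprotein gene, had the largest ratio of the 22 genes named here by the rule, 3.90 (3.50 to 4.33), from 930 and 53 UMIs. Most cells of either group held little: the medians were 1 and 0 UMIs and the highest cells 180 and 8. In the marker-free cells 112 and 21 UMIs gave 2.86 (2.18 to 3.61), and 46.8% and 8.14% of the cells had a UMI. Bcan, which encodes the brain proteoglycan brevican, stood at 1.49 (1.23 to 1.75), and at 1.01 (0.48 to 1.56) in the marker-free cells.

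Another 5 named higher genes are astroglial or shared with astroglia, and their ratios were near 0 in the marker-free cells. Aldoc, the aldolase of astrocytes, stood at 2.14 (1.86 to 2.43) in all cells and at -0.26 (-1.10 to 0.54) in the marker-free cells. Aldoc is itself 1 of the markers that define those cells. The lipid-binding protein gene Fabp7 stood at 1.18 (1.11 to 1.24) and 0.05 (-0.07 to 0.18), the growth factor gene Ptn at 1.20 (1.12 to 1.28) and 0.23 (0.06 to 0.39), and the FGF-binding protein gene Fgfbp3 at 1.82 (1.48 to 2.17) and -0.02. The lipid phosphatase gene Plpp3 stood at 1.24 and 0.11. Thinned shares of cells with a Fabp7 UMI were alike, 76.4% and 74.2%. Its UMIs per cell, not scaled for depth, had medians of 6 and 4 and upper quartiles of 17 and 10. The highest cell held 745 UMIs with EYFP and 495 without, 10.4% and 18.4% of the sums.

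**Figure D3:**
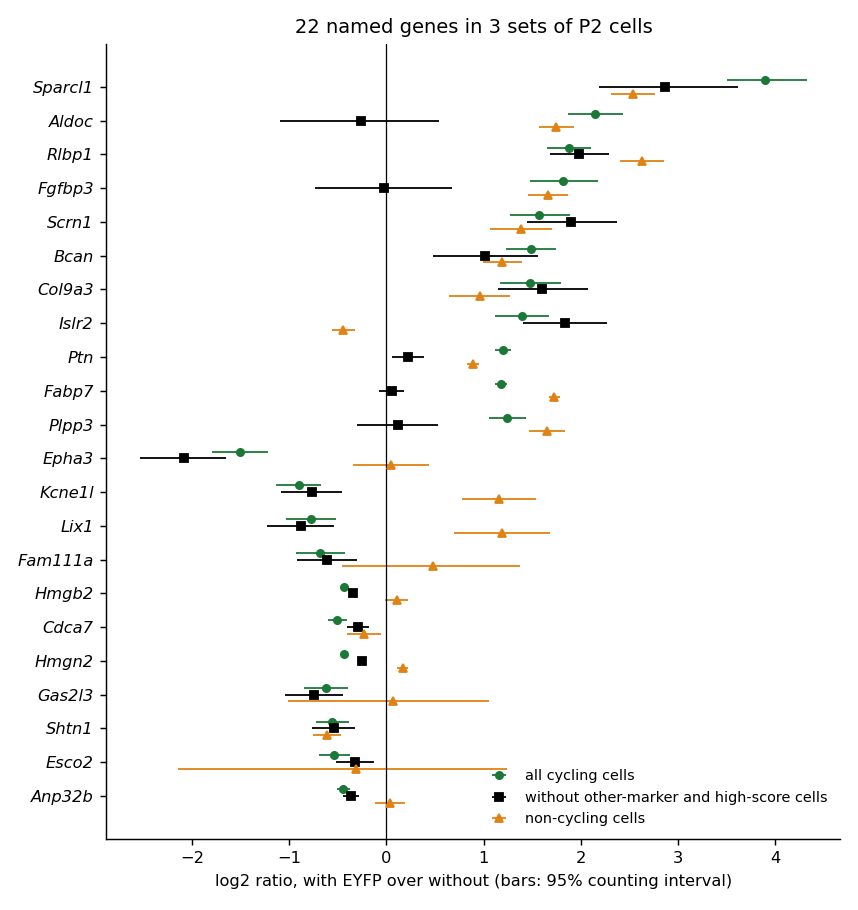
Log2 ratio, with EYFP over without (x axis), of 22 named genes (y axis) in all cycling cells, in the marker-free cells and in non-cycling Dlx cells, with 95% counting intervals. Rlbp1 and Scrn1 lie right of 0 in each set, whereas Aldoc and Fgfbp3 reach 0 in the marker-free cells and Epha3 lies left of 0 in both cycling sets.

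Among the lower genes named by the rule, only Epha3 passed 2-fold. Below the rule's limit of 50 CPM, Zcwpw1 and Slc18a2 each stood at -1.44. Epha3 encodes a receptor tyrosine kinase of the Eph family, which reads ephrins on neighbouring cells (ENSMUSG00000052504, chromosome 16, minus strand). The cells with EYFP held 143 UMIs, from 0 to 8 per cell with a median of 0, and the cells without held 345, from 0 to 10 with a median of 1. The levels were 21.9 and 62.1 CPM, a log2 ratio of -1.51 (-1.80 to -1.22), and -2.08 (-2.54 to -1.66) in the marker-free cells. After thinning, 17.0% (11.9 to 23.3) and 46.4% (39.2 to 53.7) of cells had a UMI, against 36.3% and 62.1% unthinned. No cell held more than 5.59% of either sum.

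The remaining named lower genes differed by less than 2-fold. Kcne1l, a potassium channel subunit gene, stood at 39.3 and 73.4 CPM, a ratio of -0.90 (-1.13 to -0.67). Lix1 stood at -0.78 (-1.03 to -0.52) and Fam111a, which encodes a protease bound to replicating DNA, at -0.68 (-0.94 to -0.43). Several others serve chromatin and division: Hmgb2 at -0.44, Hmgn2 at -0.44, Cdca7 at -0.50, the cohesin acetyltransferase gene Esco2 at -0.54, Gas2l3 at -0.62 and Anp32b at -0.44. Shtn1, which encodes shootin, stood at -0.56. These 11 lower genes, Epha3 included, were below 0 under every alternative tried. In the marker-free cells Epha3 stood at -2.08 and the others lay between -0.88 and -0.25. Median UMIs per cell, not scaled for depth, were mixed for the chromatin and division genes. With and without EYFP they were 95 and 87 for Hmgb2, 3 and 2 for Esco2 and 0 and 0 for Gas2l3. For Hmgn2 they were 96 and 100, for Cdca7 7 and 8, and for Anp32b 17 and 19.

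The patterning genes gave the context of origin. Of 10 counted pallial genes, those of 14 with 20 or more UMIs, 9 were above 0 and 4 higher by 2-fold (3.76% over all genes so counted), with a median of 0.95 beside 0.04 over all 12182. Dmrta2, a doublesex-related factor of the cortical hem and pallium, had 202 and 31 UMIs, a ratio of 2.47 (1.92 to 3.06). Pax6 had 1265 and 545 UMIs, 193 and 98.0 CPM, a ratio of 0.98 (0.83 to 1.13), and Lhx2 had 743 and 333, at 0.92 (0.73 to 1.11). Emx1, the gene behind the Cre, had 33 and 0 UMIs, at least 9.35-fold higher against a floor of 3 UMIs over the group. It was found in 10.4% and 0% of cells. Among marker-free cells Dmrta2 stood at 2.35 (1.65 to 3.10), Pax6 at 1.28 (1.10 to 1.46) and Lhx2 at 0.57 (0.29 to 0.84), and Emx1 had 4 and 0 UMIs.

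The 12 counted subpallial genes split, with 7 below 0, 4 lower by 2-fold, 1 higher by 2-fold and a median of -0.22. Over all genes so counted, 2.01% were lower and 3.76% higher by 2-fold. Six3, a homeobox factor of the striatal and septal primordium, had 114 and 260 UMIs, 17.4 and 46.8 CPM, a ratio of -1.42 (-1.75 to -1.10). Vax1, a homeobox factor of the ventral forebrain, stood at -1.58 (-2.15 to -1.03) and the medial ganglionic eminence factor Nkx2-1, with 11 and 29 UMIs, at -1.63 (-2.78 to -0.59). The lateral ganglionic eminence factor Gsx2 differed less, at -0.36 (-0.64 to -0.08), and -0.58 (-0.97 to -0.21) in the marker-free cells, where Nkx2-1 had 1 and 17 UMIs. Among marker-free cells Six3 stood at -1.92 (-2.55 to -1.34) and Vax1 at -2.19 (-3.16 to -1.34). The median was -1.25 over the 6 members with 20 or more UMIs there and -0.57 over all 12.

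2 Zic genes, which encode zinc-finger factors, were higher with EYFP. Zic5, filed here in the subpallial list, was its 1 member higher by 2-fold. It had 59 UMIs with EYFP and 2 without, a ratio of 4.65 (2.73 to 7.73). Zic2 is in neither patterning list but in the olfactory bulb interneuron list. It had 68 and 0 UMIs, 19.3-fold higher with the 0 set to the floor of 3, and was found in 25.3% and 0% of cells. Without marker cells Zic5 had 30 and 2 UMIs and Zic2 had 32 and 0. None of the 21 cells with 1 EYFP UMI held a Zic2 UMI.

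These levels could be followed over the count of EYFP in each cell, on sums over 35 cells with 2 to 9 UMIs, 72 with 10 to 19 and 75 with 20 or more. Rlbp1 stood at 36.2 CPM (31.3 to 41.5) in cells with 0 EYFP UMIs, at 34.1 (21.9 to 50.7) with 1, and at 108, 124 and 148 CPM in the 3 groups above. Epha3 stood at 62.1, 44.1, 29.3, 18.5 and 21.1 CPM in the same order. Among marker-free cells Rlbp1 stood at 28.4 and 17.8 CPM with 0 and 1 EYFP UMIs and at 122, 112 and 108 CPM above, so that its level was not ordered by EYFP count from 2 UMIs on. Epha3 stood at 71.4, 44.6, 22.6, 10.6 and 20.8 CPM there. In all cells, those with 1 EYFP UMI overlapped in interval with those at 0 for Rlbp1, although 1 cell held 58.3% of their 24 UMIs. For Epha3 their interval (29.9 to 62.5) overlapped those of cells with 0 (55.7 to 69.0) and with 2 to 9 (20.6 to 40.3).

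In all cells Six3 and Vax1 were high up to 9 EYFP UMIs and low above, whereas in the marker-free cells both were already low at 2 to 9. Six3 stood at 46.8, 54.0 and 55.4 CPM in cells with 0, 1 and 2 to 9 EYFP UMIs, and at 6.18 and 9.77 CPM with 10 to 19 and 20 or more. Vax1 stood at 17.8, 21.3, 15.0, 3.33 and 4.10 CPM. Pax6 stood at 98.0, 69.6, 108, 211 and 216 CPM. In the 22 marker-free cells with 2 to 9 EYFP UMIs Six3 had 2 UMIs (3.48 CPM, 0.421 to 12.6) and Pax6 stood at 165 CPM (134 to 202). Six3 stood at 4.56 CPM in marker-free cells with 10 to 19 and at 17.5 CPM with 20 or more, of which 1 cell held 90.5%. Vax1 in marker-free cells stood at 19.2 and 29.7 CPM with 0 and 1 EYFP UMIs and at 6.95 (1.89 to 17.8), 5.32 and 1.67 CPM above. Of all 35 cells with 2 to 9, 34.3% held RNA of other types, 22.9% had high doublet scores, and 37.1% held Xist and Y-linked UMIs together, against 27.8%, 11.1% and 18.1% of those with 10 to 19. In those with 20 or more, the shares were 42.7%, 24% and 32%.

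**Figure D4:**
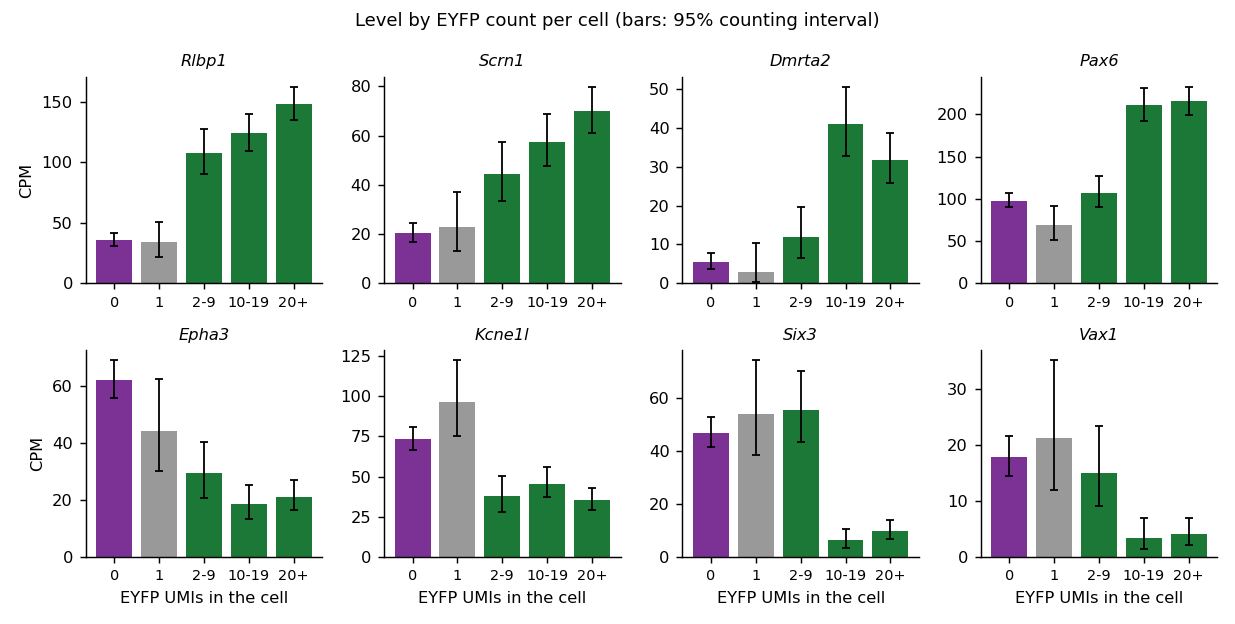
CPM (y axes, with 95% counting intervals) of 8 genes in cycling Dlx cells grouped by their EYFP UMIs (x axes, with 206, 21, 35, 72 and 75 cells). Rlbp1 is about as low at 1 UMI as at 0 and above 100 CPM from 2 UMIs on, whereas Six3 and Vax1 are low from 10 UMIs on when all cells are counted.

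When the naming rule was applied to the marker-free cells, 2 of its 12 higher and 6 of its 12 lower genes were the same as in all cells. These counts depend on the limit of 50 CPM. Scrn1 (49.5 CPM with EYFP), Col9a3 (42.4) and Sparcl1 (36.3) fell below it in the marker-free cells. At a limit of 20 CPM these were named again beside Rlbp1 and Islr2, and of the shared lower genes only Epha3 and Lix1 remained in the marker-free cells. Gria2, an AMPA receptor subunit gene, had 550 and 344 UMIs, a ratio of 1.13 (0.93 to 1.32) there and 1.02 (0.88 to 1.16) in all cells. The matrix protein gene Spon1 stood at 1.38 (1.05 to 1.71) there and 0.97 in all cells, and Fam210b at 1.15 (0.89 to 1.42) and 1.08. Igfbp5, an IGF-binding protein gene, stood at 1.07 (0.78 to 1.37) and 0.55. The noncoding RNA gene Meg3 stood at 0.97 (0.86 to 1.07) and 0.37, although fewer of the marker-free cells with EYFP held a UMI of it, 62.4% against 70.9%. The other higher genes newly named at 50 CPM were Kcnq1ot1, Sp8, Gad2, Nr2f1 and Efhd2.

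On the lower side the marker-free cells added the calcium-binding protein gene S100a16 at -0.90 (-1.17 to -0.63), the ciliary neurotrophic factor receptor gene Cntfr at -0.87 (-1.23 to -0.52), the actin crosslinker gene Flna at -0.72, the secreted glycoprotein gene Nell2 at -0.53 and the zinc-finger factor gene Zeb2 at -0.47 (-0.58 to -0.35). In all cells they stood at -0.14, -0.60, -0.48, -0.46 and -0.46. Apoe, the sixth, is 1 of the astroglial markers. Below the CPM limit of the rule, the vesicular monoamine transporter gene Slc18a2 had 24 and 97 UMIs, a ratio of -1.57 (-2.28 to -0.91), and the membrane protein gene Emp1 at -1.21 (-1.68 to -0.75), and higher ones were the G protein regulator gene Rgs8 at 2.03 (1.30 to 2.82) and the Notch ligand gene Jag1 at 1.71 (1.17 to 2.28).

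Genes of interneurons of the olfactory bulb were slightly higher on balance. Of 25 counted, 20 were above 0, 4 were higher and 0 lower by 2-fold, beside 3.76% and 2.01% over all genes so counted. Their median was 0.33, and 0.37 over 23 in the marker-free cells. Sp8, a zinc-finger factor of olfactory bulb interneuron progenitors, had 742 and 388 UMIs, a ratio of 0.70 (0.52 to 0.88), and 1.01 (0.80 to 1.23) in the marker-free cells. The nuclear receptor gene Nr2f1 stood at 0.87 (0.76 to 0.99), Sall3 at 0.61, the neuregulin receptor gene Erbb4 at 1.30 (0.95 to 1.65) and Meis2 at 0.51, and these stood at 0.90, 0.76, 1.35 and 0.58 in the marker-free cells. Nr2f2 stood at -0.27 (-0.57 to 0.02) and Sall1 at -0.52 (-0.87 to -0.16), and at -0.31 and -0.56 without marker cells.

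The core genes of the inhibitory lineage were nearly level on balance, with a median of -0.09 over 11 counted. Of these 0 passed 2-fold, beside 3.76% higher and 2.01% lower over all genes so counted. Both groups were chosen by their Dlx1 and Dlx2 UMIs, and how far this sets the level of the other genes was not tested. Gad2, which encodes a GABA-making enzyme, had 2103 and 1193 UMIs, a ratio of 0.58 (0.48 to 0.69), and 0.89 (0.76 to 1.01) in the marker-free cells. Striatal genes had a median of 0.05 over 12 counted.

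Excitatory lineage genes were high in a minority of the cells with EYFP. Of 13 genes, 8 had 20 or more UMIs in both groups together. All 8 were higher by 2-fold in all cells (3.76% over all genes so counted), with a median of 3.78. The 6 excitatory neuron markers had 409 UMIs with EYFP and 31 without. Such genes reach the limit of 20 UMIs mostly through the cells with EYFP, so the count and the median follow from that limit in part. Neurod2, a factor of excitatory neurons, had 137 and 8 UMIs, and Eomes, a factor of excitatory intermediate progenitors, 84 and 3. A Neurod2 UMI was found in 12.6% and 3.88% of cells. Once cells with markers of this lineage were left out, 0 of the 8 had 20 UMIs, and Eomes had 16 and 3.

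Genes of the cell cycle were lower by small amounts in the cells with EYFP. Of 39 S phase genes 38 were below 0, and of 46 G2 and M phase genes 45 were, each list with a median of -0.27. In both lists 0 genes passed 2-fold, beside 3.76% higher and 2.01% lower over all genes so counted. Mcm6, a subunit of the replicative helicase, stood at -0.46 (-0.58 to -0.33), the ribonucleotide reductase gene Rrm2 at -0.07, Ccnb2, a mitotic cyclin, at -0.44 (-0.59 to -0.29) and the G1 cyclin Ccnd2 at -0.37 (-0.40 to -0.34). Ccnd1 stood at 0.53 (0.30 to 0.75). Without marker cells Mcm6 stood at -0.24, Rrm2 at 0.20 (0.12 to 0.29), Ccnb2 at -0.41, Ccnd2 at -0.26 and Ccnd1 at 0.67. The cells were chosen by 5 cycling genes, and these too were lower, with Mki67 at 415 and 528 CPM. In the marker-free cells the S phase median was -0.08, with 27 of 39 below 0, and the G2 and M median -0.22, with 43 of 46.

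The S phase share was slightly higher with EYFP. S phase genes made up 32.2% of the summed UMIs of both lists with EYFP and 31.1% without, and 33.2% and 30.1% in the marker-free cells. In the median cell the share was 31.5% (quartiles 19.8 and 48.6) and 27.7% (14.6 and 47.1). The G2 and M phase genes summed to 10996 and 13685 CPM and the S phase genes to 5232 and 6170 CPM.

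Astroglial and stem cell genes were higher in all cells, with 11 of 31 higher by 2-fold (3.76% over all genes so counted). Their median was 0.73, but -0.04 over 24 in the marker-free cells. Hopx, which in the adult marks stem cells of the dorsal wall, had 79 and 3 UMIs, a ratio of 4.48 (2.88 to 6.79), and 16 and 1 in the marker-free cells. The 7 counted genes of the adult dorsal and ventral wall, Hopx among them, had a median of 0.47. Vim stood at -0.31 (-0.37 to -0.24) and the metallothionein gene Mt1 at -0.83 (-0.93 to -0.72), with 51.3% and 34.8% of its UMIs in 1 cell of each group. Oligodendrocyte lineage genes had a median of 0.89 with 7 of 15 higher by 2-fold, and 0.34 over 10 in the marker-free cells, where Pdgfra, the receptor of oligodendrocyte precursors, had 39 and 16 UMIs.

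Among genes of amplifying progenitors and Notch signalling 2 of 24 were higher by 2-fold and 1 lower, with a median of 0.08. Over all genes so counted, 3.76% were higher and 2.01% lower by 2-fold. Jag1 had 229 and 78 UMIs, a ratio of 1.32 (0.94 to 1.71). The EGF receptor gene Egfr, a mark of activated stem cells and amplifying progenitors, stood at 0.75 (0.51 to 1.00), and at 0.95 (0.59 to 1.32) in the marker-free cells. The receptor gene Notch1 stood at -0.18 (-0.32 to -0.04), and at -0.29 (-0.49 to -0.10) without marker cells.

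Of 34 counted Eph, ephrin and guidance genes, 8 were higher and 1 lower by 2-fold, with a median of 0.44, and 0.22 over 26 in the marker-free cells. For this list and the 2 below, the shares over all genes so counted were 3.76% higher and 2.01% lower. Epha7, a receptor of the same family as Epha3, went the other way from it, with 98 and 23 UMIs, a ratio of 1.86 (1.19 to 2.58), and 2.13 (1.07 to 3.32) in the marker-free cells. Flrt2, a membrane protein that binds Unc5 receptors, stood at -0.67 (-0.97 to -0.38) and -1.20 (-1.64 to -0.78). The netrin receptor gene Unc5d had 169 and 10 UMIs in all cells but 9 and 9 in the marker-free cells. The semaphorin gene Sema3c likewise went from 136 and 22 to 16 and 14. Of 23 receptor and chloride transporter genes 6 were higher and 1 lower by 2-fold, with a median of 0.45, and 0.18 over 10 in the marker-free cells. Grin2b, an NMDA receptor subunit gene, stood at 1.45 (1.07 to 1.84), and 1.23 (0.73 to 1.75) in the marker-free cells. Of 40 adhesion genes 9 were higher by 2-fold, with a median of 0.68, and 0.12 over 32 in the marker-free cells.

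Signalling lists lay between -0.32 and 0.61. FGF and EGF pathway genes had a median of 0.61 over 18, and 0.21 over 14 in the marker-free cells. Hedgehog genes had 0.31, BMP and Id genes 0.30 and Wnt genes 0.21, and these stood at 0.06, 0.06 and -0.05 without the marker cells. Retinoid signalling genes had -0.32 over 11, and -0.07 over 8 there. Of these Meis1 stood at -0.55 (-0.82 to -0.28), while its relative Meis2 stood at 0.51 (0.45 to 0.57). IGF genes had 0.16, with the binding protein gene Igfbp2 at 0.37 (0.18 to 0.56), and 0.93 (0.55 to 1.32) in the marker-free cells.

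Housekeeping and chromatin lists were close to level in all cells. Oxidative phosphorylation genes had a median of -0.03 over 24 and glycolysis genes 0.08 over 19. Sterol synthesis genes had 0.21 over 22, and Polycomb and DNA methylation genes -0.06 over 27. In each of these lists 0 genes passed 2-fold, beside 3.76% higher and 2.01% lower over all genes so counted. Splicing and RNA-binding genes had 0.12 over 19, migrating neuroblast genes 0.21 over 30, cyclins and inhibitors -0.10 over 21 and progenitor transcription factors 0.12 over 28. In the marker-free cells these 8 lists lay between -0.10 and 0.21, with progenitor transcription factors at -0.10 and sterol synthesis at 0.00. Immediate early and stress genes, which dissociation can raise, had -0.02 over 28. Interferon and MHC genes had 0.06 over 16, and the lowest of them, Bst2, had 7 and 77 UMIs, the latter with 76.6% in 1 cell, and 1 and 6 in the marker-free cells. Cilium genes had -0.28 over 17, beside ependymal markers at 66.9 and 106 CPM, of which 1 cell held 92.5% and 49.5%. Over the same 17 genes the median was 0.30 without marker and high-score cells, 0.45 at 5 Dlx UMIs and -3.71 at 4 EYFP UMIs, so no direction is given for this list.

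The 24 counted imprinted genes had a median of -0.01, with 12 above and 12 below 0. Kcnq1ot1, the noncoding RNA of an imprinted cluster, had 1037 and 501 UMIs, a ratio of 0.81 (0.66 to 0.97), and was found in 54.9% and 30.4% of thinned cells. The noncoding gene H19 had 21 and 47 UMIs, at -1.40 (-2.21 to -0.63), and 8 and 31 in the marker-free cells.

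**Figure D5:**
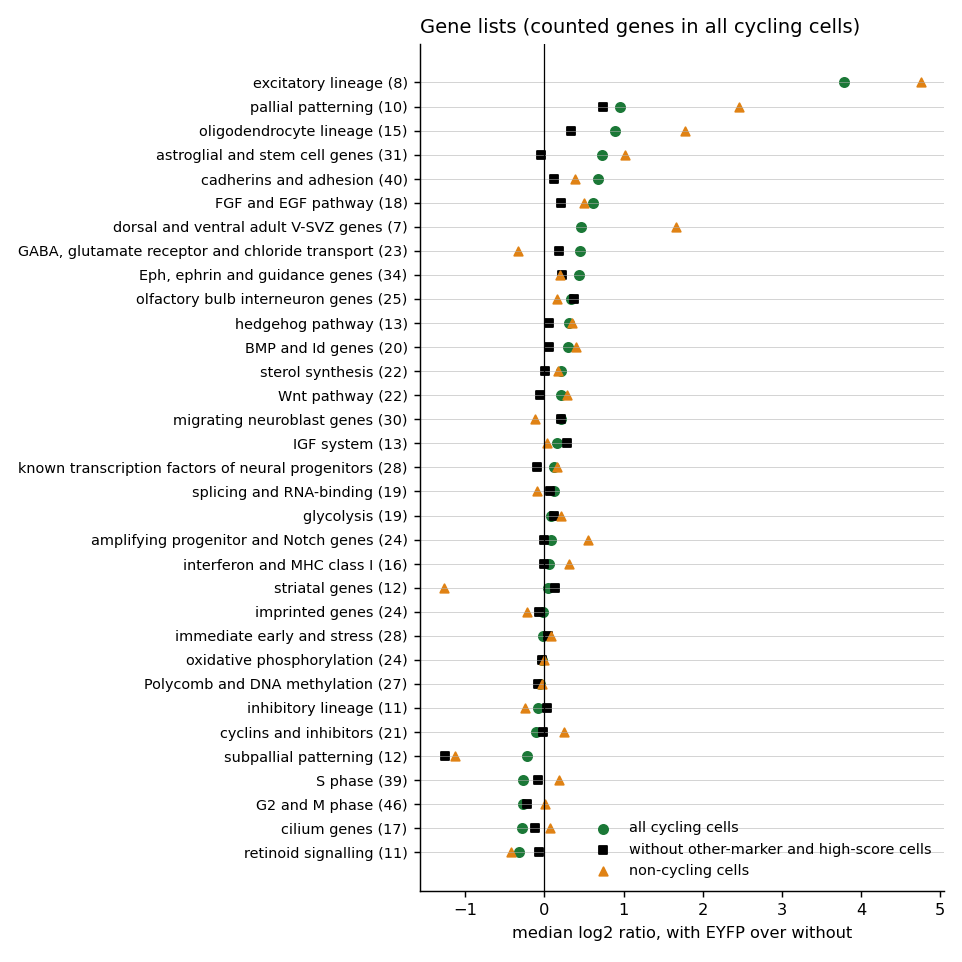
Median log2 ratio, with EYFP over without (x axis), of each gene list (y axis, counted genes in parentheses) in all cycling cells, in the marker-free cells where 5 or more genes had 20 UMIs, and in non-cycling Dlx cells. Pallial genes lie right of 0 and subpallial genes left of 0 in each set, and the astroglial list reaches 0 in the marker-free cells.

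Non-cycling Dlx cells, with 0 or 1 UMI of the 5 cycling genes, took no part in the naming rule and came from the same library. Among them 197 had EYFP and 689 did not. Of 11925 genes with 20 or more UMIs, 684 were higher by 2-fold (5.74%) and 328 lower (2.75%). They too differed in other RNA, found in 33.0% and 9.43% of the cells, so values are also given in 130 and 618 marker-free cells. The difference between cycling and non-cycling cells was not tested.

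Rlbp1 was higher in non-cycling cells with EYFP as well, at 2.62 (2.40 to 2.85), and 2.35 (2.02 to 2.68) in the marker-free ones. Col9a3 stood at 0.96 (0.64 to 1.27) and 1.62 (1.18 to 2.07), Scrn1 at 1.38 and 1.02 (0.49 to 1.54), and Sp8 at 1.10 and 1.62 (1.45 to 1.79). Islr2 was the reverse of its value in cycling cells, at -0.45 (-0.57 to -0.33) and -0.24 (-0.39 to -0.09). Erbb4 was lower, at -1.06 (-1.26 to -0.86) and -0.79, and Jag1 stood at 1.00 and 0.18 (-0.94 to 1.19). Igfbp5, higher in marker-free cycling cells, was lower in the marker-free non-cycling ones, at -1.28 (-1.83 to -0.77) on 35 and 307 UMIs.

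Epha3 stood at 0.05 (-0.35 to 0.44) in all non-cycling cells but at -1.60 (-2.50 to -0.81) in the marker-free ones, on 14 and 153 UMIs. Kcne1l and Lix1, lower in cycling cells, stood at 1.16 and 1.19 in all non-cycling cells and at 0.29 (-0.54 to 1.07) and -0.02 (-1.08 to 0.92) in the marker-free ones. Flrt2 stood at -1.04 and -0.94 (-1.28 to -0.61) and Zeb2 at 0.25 and 0.45 (0.34 to 0.56), the latter opposite in sign to the cycling cells.

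Of 8 pallial genes counted in non-cycling cells all 8 were higher by 2-fold, beside 5.74% over all genes so counted. Their median was 2.45, but 0.72 over the 6 with 20 UMIs in the marker-free ones. Of 10 subpallial genes 5 were lower and 2 higher by 2-fold, beside 2.75% and 5.74% over all genes so counted. Their median was -1.13, and -1.75 over 8 in the marker-free ones. Nkx2-1 had 5 and 220 UMIs, and 1 and 213 without marker cells. Zic2 had 68 and 7, a ratio of 4.45 (3.33 to 5.82), and 50 and 5 without marker cells. The S phase and G2 and M phase lists had medians of 0.18 and 0.01, and 0.26 and 0.12 in the marker-free ones. The excitatory list had 4.75, again over genes that reach 20 UMIs mostly through the cells with EYFP, with 0 genes at 20 UMIs in the marker-free ones.

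Detection of Rlbp1 and Six3 in the same cells is given as counts. Among thinned cells with EYFP, 102 of 182 had Rlbp1 alone, 5 had Six3 alone and 9 had both. Without EYFP, 36 of 194 had Rlbp1 alone, 35 had Six3 alone and 7 had both. Rlbp1 and Dmrta2 were found together in 28 cells with EYFP and 2 without, and Rlbp1 and Epha3 in 17 and 20. These pairs were chosen after their values were seen, and the counts do not show whether the genes exclude each other.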

How the data were processed

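Per the file headers, the authors deposited unnormalized UMI counts, genes by barcodes, from Cell Ranger 4.0.0, against mm10 per the submitters' processing notes. The gene and barcode files deposited with them hold identifiers (type other). Settings of the cell calling are not given here. The P2 matrix held 2778 barcodes and 42572208 UMIs. The cells and all 33 gene lists were chosen with earlier results of these data known, and no list is independent support. From the counts, sums per group were scaled to CPM, and log2 ratios got exact conditional 95% intervals, sums exact Poisson ones and shares exact Clopper-Pearson ones, for counting error only (scipy 1.17.1, numpy 2.4.6). Groups at 0 were set to a floor of 3 UMIs. Of these steps, the log2 ratio and its interval were tried on simulated Poisson sums, which have counting error alone and no concentration of UMIs in single cells. Named genes were the 12 highest and 12 lowest by the interval bound nearest 0. They had 50 or more CPM in 1 group, UMIs in 20% of the cells of the higher group and no cell holding over 25%. Left out were the genes of the cell rule, patterning, mitochondrial, ribosomal, haemoglobin, Y-linked and unnamed predicted genes, and Xist and Tsix. Other X-linked genes stayed in, Kcne1l among them. Of the named genes, 22 are reported here. List members, the 7 lower genes not led by 1 cell and the genes below 50 CPM in the marker-free cells were picked for naming after their values were seen. Doublets were scored with Scrublet (scanpy 1.11.5). Its automatic threshold called 4 of 2442 cells (0.164%), too few to be of use, so the highest 5% served as an alternative. Gene positions are from GENCODE on GRCm38, the same build as mm10. TMM scaling used edgeR 4.0.16 for its factors alone, on the deposited counts.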

Additional observations from a re-analysis of the deposited data

How the results depend on the processing

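With 1 library the limits are depth, EYFP missed in labelled cells and RNA of other cells, and no value here covers the spread between animals. The number of genes higher by 2-fold, 77, became 35 with equal weight per cell, 27 at 50 CPM, 1802 without a filter, 40 without high doublet scores, 28 without cells with excitatory or oligodendrocyte precursor markers, 24 without cells with markers of any other type, and 39 without those and high scores. The last 2 settings and the limit of a UMI in 20% of cells were added after seeing the data. The number lower, 40, became 19 with equal weight, 12 at 50 CPM, 1837 without a filter, 14 with a UMI in 20% of cells, 13 at a mitochondrial limit of 5%, 15 at 5 Dlx UMIs, 17 without cells with other markers, and 14 without those and high scores. Fewer genes or cells enter by construction at the stricter limits and where cells were left out, and more genes, 17901, without a filter. With equal weight the same 182 and 206 cells entered, over 6591 genes. Otherwise the cause was not tested. The other settings (TMM, which moved every ratio by -0.02, 4 EYFP UMIs, 20 cycling UMIs, thinning) kept both counts within 1.5 times. Among values beyond 0.5 in size, signs reversed for the astroglial list median (-0.049 without marker cells, -0.036 also without high scores), Aldoc (-0.26 in both) and Fgfbp3 (-0.023 in the second). Of 363 list medians 32 had the other sign, the other 30 of lists within 0.31 of 0. The cilium list, at -0.28, stood at 0.45 at 5 Dlx UMIs and 0.20 and 0.30 without marker cells, subpallial genes at 0.03 without high scores, and, without marker cells, progenitor transcription factors at -0.11, Wnt genes at -0.03 and hedgehog genes at -0.02. Of 264 single-gene values, 88 moved by more than counting error and 173 did not. No paired analysis was possible because the groups are cells of 1 library.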
